A study of Mus musculus with 48 samples.

Results

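The genes considered here take folate into cells and keep it there. They are *Slc19a1*, *Slc46a1*, *Folr1*, *Folr2*, *Fpgs* and *Ggh*, and every probe whose accession maps to 1 of these 6 symbols was taken, which gave 9 probes of the 41174 on the array and 6 of its 18434 named genes. RNA came from the liver and the colon of C57/BL6 mice aged 12 weeks, and every mouse, controls included, ate a high-fat diet. Diet H was supplemented with selenium and folate above the recommended requirements, and diet L was marginally deficient in both. An effect of folate thus cannot be told apart from one of selenium. The first letter of a group is the diet of the dam during gestation and lactation and the second is the diet of the offspring from weaning: HH mice had H throughout, HL mice had H and then L, LH mice had L and then H, and LL mice had L throughout. Each of the 48 arrays compared Cy3-labelled RNA of 1 mouse with a Cy5-labelled reference RNA, and the values below are log2 ratios of mouse over reference. The liver gave 5 HH mice and 6 mice in each other group, because 2 HH arrays carry the same animal number and were averaged. The colon gave 6 mice per group. Each of the 12 slides held 4 arrays, 1 of each diet and all of the same tissue, so tissue and slide set cannot be told apart.

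Folate enters cells by 3 kinds of protein. *Slc19a1*, the reduced folate carrier, exchanges reduced folates for organic anions at neutral pH. *Slc46a1*, the proton-coupled folate transporter, works best in acid and is the main route of folate absorption in the upper intestine. *Folr1* and *Folr2* encode membrane-anchored receptors that bind folate tightly and are taken in by endocytosis. *Folr1* is a receptor of epithelia such as kidney and of embryonic tissue, and *Folr2* is a receptor of macrophages and placenta. Once inside, *Fpgs*, folylpolyglutamate synthase, adds a chain of glutamates that holds folate in the cell and makes it a better substrate for folate enzymes. *Ggh*, gamma-glutamyl hydrolase, is a lysosomal enzyme that removes the chain. The liver is the main folate store of the body, and the colon can absorb folate made by its bacteria.

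The promoters of *Fpgs*, *Slc46a1* and *Slc19a1*, whose tissue differences (by the brighter probe of *Slc19a1*) kept their direction under each scaling described below, are shown as the 250 bases before an annotated start, from RefSeq on GRCm38.p6, 5′ to 3′ on the strand of the gene. Capitals mark matches, on either strand, to GGGCGG or CCGCCC (the GC box), to CCAAT or ATTGG (the CCAAT box) and to TATAAA or TTTATA (the TATA box). Windows of this length over all genes held a GC box in 32.7%, a CCAAT box in 33.8% and a TATA box in 12.4% of 32851 cases. The windows lie at chr2:32694176-32694425 on the minus strand for *Fpgs*, chr11:78465451-78465700 on the plus strand for *Slc46a1* and chr10:77032489-77032738 on the plus strand for *Slc19a1*. The *Fpgs* start lies 10021 bases inside the annotated gene. A second annotated start of *Slc19a1* is described without its sequence. Both *Ggh* probes also kept their direction, but no window was available for that gene.
Fpgs: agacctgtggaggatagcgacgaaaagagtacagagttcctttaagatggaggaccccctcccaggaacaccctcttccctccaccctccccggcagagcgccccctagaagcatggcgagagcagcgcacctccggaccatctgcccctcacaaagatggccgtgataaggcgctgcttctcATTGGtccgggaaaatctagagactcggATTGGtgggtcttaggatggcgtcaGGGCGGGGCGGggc
Slc46a1: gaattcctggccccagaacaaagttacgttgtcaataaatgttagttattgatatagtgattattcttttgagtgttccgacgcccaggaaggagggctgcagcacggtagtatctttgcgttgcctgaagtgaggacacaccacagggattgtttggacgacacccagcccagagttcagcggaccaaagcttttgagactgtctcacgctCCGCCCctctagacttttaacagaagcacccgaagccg
Slc19a1: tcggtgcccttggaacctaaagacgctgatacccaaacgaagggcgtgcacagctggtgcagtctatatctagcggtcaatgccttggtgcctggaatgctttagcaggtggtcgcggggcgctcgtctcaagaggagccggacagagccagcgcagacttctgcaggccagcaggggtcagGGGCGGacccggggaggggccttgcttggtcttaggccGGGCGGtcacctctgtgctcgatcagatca
The *Fpgs* window held 2 CCAAT boxes in the reverse orientation and, next to its start, 2 GC boxes. *Slc46a1* held 1 GC box, and *Slc19a1* held 2. None of the 3 windows held a TATA box. The window before the second *Slc19a1* start, chr10:77032962-77033211, held no match to any of the 3 motifs. GC content was 60.4%, 49.6% and 62% in this order, against a median of 52.4% over all windows. A match is a description of letters and was not tested as a binding site.

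All 9 probes passed the scanner software's test against background for Cy3 on all 24 liver and all 24 colon arrays. Marker genes followed the labelled tissues. The mean log2 ratio of 6 hepatocyte genes was 1.40 to 2.17 in the livers and -4.19 to -3.50 in the colons, and that of 8 colon epithelium genes was -4.43 to -3.85 in the livers and 0.24 to 0.99 in the colons. Of spots on the array, 55.1 to 66.0% were well above background in the liver and 66.8 to 73.7% in the colon. *Xist*, which is transcribed in females, was above a log2 Cy3 signal of 9 in 1 liver (HL) and 6 colons (2 HH, 1 HL, 0 LH and 3 LL) of animals that the study describes as male. In the liver and 3 of these colons the Y-linked *Eif2s3y* had a log2 Cy3 signal of 6.29 to 7.37, and in the other 3 colons (2 HH and 1 LL) it was at 10.09 to 11.17, where samples without *Xist* were at 9.78 to 11.6. An LL liver had *Xist* at 8.55, below this cut-off, where the other livers below it were at 5.98 to 6.74. It was counted among the samples without *Xist*. The samples above the cut-off were kept, and results without them are given where they differ. Nothing in the labels ties a liver to a colon of the same mouse. In whole tissue, fewer cells of a type and less RNA per cell cannot be told apart.

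The comparison of tissues asked where these genes are used. Relative to the other genes of the tissue, *Fpgs* and *Slc46a1* were higher in the liver, and *Ggh* and, by the brighter of its 2 probes, *Slc19a1* were higher in the colon. *Fpgs* (gene 14287, chromosome 2, 32682609 to 32704196) had log2 ratios of 2.42, 2.13, 1.71, 2.26 and 2.38 in the 5 HH livers. The lowest, median and highest values were 1.68, 2.12 and 2.40 in HL livers, 1.78, 1.92 and 2.79 in LH livers, and 1.60, 2.20 and 2.70 in LL livers. In colons they were -1.15, -0.81 and -0.49 for HH, -1.02, -0.92 and -0.42 for HL, -1.22, -0.91 and -0.59 for LH, and -1.07, -0.88 and -0.70 for LL. The lowest liver thus lay far above the highest colon, whatever the diet. The mean difference was 2.98 on the log2 scale (SE 0.08, n = 23 livers and 24 colons, limma adjusted p = 2.82e-32), a 7.92-fold higher level in the liver with a 95% interval of 7.04 to 8.90.

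*Slc46a1* (gene 52466, chromosome 11, 78465701 to 78471945) had log2 ratios of 0.23, 0.52, 0.09, 0.39 and 0.32 in HH livers. Its lowest, median and highest values were 0.19, 0.34 and 0.62 in HL livers, 0.32, 0.44 and 0.55 in LH livers, and 0.23, 0.24 and 0.35 in LL livers. The colons gave -2.14, -1.95 and -1.82 for HH, -2.24, -2.01 and -1.78 for HL, -2.14, -1.96 and -1.80 for LH, and -2.32, -2.01 and -1.90 for LL. Over the livers its SD of 0.14 was the smallest of the 9 probes, and over the colons its SD of 0.14 was above only the 0.13 of the dimmer *Slc19a1* probe. The tissues did not overlap. It was 5.11-fold higher in the liver (log2 difference 2.35, SE 0.04, limma adjusted p = 9.75e-41).

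*Slc19a1* (gene 20509, chromosome 10, 77032269 to 77050432) was measured by 2 probes. The brighter, A_51_P502152, ranged from -1.80 to -1.17 over the 23 livers and from -0.99 to -0.24 over the 24 colons. By group, the means were -1.47, -1.52, -1.49 and -1.40 in HH, HL, LH and LL livers and -0.64, -0.52, -0.62 and -0.53 in the colons. No liver reached the lowest colon, and the liver was 1.85-fold lower (log2 difference -0.89, SE 0.05, limma adjusted p = 3.94e-21). The dimmer, A_52_P237792, went the other way, from 0.45 to 1.26 in livers and from -0.29 to 0.19 in colons, with a log2 difference of 0.85 (SE 0.05). Its median Cy3 intensity was 144 in the liver and 188 in the colon, where the median local background of the arrays was 37 to 47, whereas the brighter probe had 784 and 2691.

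*Ggh* (gene 14590, chromosome 4, 20041997 to 20066111) was lower in the liver by both of its probes. A_51_P439966 ran from -1.59 to -0.36 in livers, with a median of -1.11, and from -0.63 to 0.32 in colons, with a median of -0.27. Its group means in HH, HL, LH and LL order were -1.01, -0.95, -1.23 and -1.17 in the liver, with SDs of 0.19 to 0.48, and -0.18, -0.21, -0.24 and -0.15 in the colon, with SDs of 0.19 to 0.36. A_51_P439970 ran from -1.46 to -0.23 in livers and from -0.32 to 0.31 in colons. At least 1 liver reached into the range of the colons at each probe, so the tissues overlapped. The log2 differences were -0.89 (SE 0.09) and -0.98 (SE 0.07), with limma adjusted p-values of 2.97e-12 and 4.31e-17. The RNA of the enzyme that adds glutamates and that of the enzyme that removes them thus differed between the tissues in opposite directions.

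*Folr1* (gene 14275, chromosome 7, 101858331 to 101870788) was far below the reference in both tissues by its brighter probe but not by its dimmer one. The brighter, A_51_P329394, ranged from -3.30 to -2.58 in livers and from -3.38 to -2.48 in colons. These ranges nearly coincide, and the log2 difference of -0.15 (SE 0.07, limma adjusted p = 0.0422) did not reach 1.5-fold. Without the samples with *Xist* this difference was -0.13 (SE 0.07, limma adjusted p = 0.0963). The median Cy5 intensity of the reference at this probe was 9747, against Cy3 intensities of 385 in livers and 795 in colons. Per the labels this reference was made from a pregnant mouse, whole body with foetus, whereas the methods name a pool of intestine and liver. The dimmer probe, A_52_P584335, was at a median of -0.05 in livers and -0.68 in colons, with a log2 difference of 0.82 (SE 0.12).

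*Folr2* (gene 14276, chromosome 7, 101839988 to 101857190) varied more between mice of a group than most members. HH livers gave 0.50, 0.67, 1.02, 1.11 and -0.34, and the lowest, median and highest values were 0.12, 0.67 and 1.07 in HL livers, -0.33, 0.34 and 1.43 in LH livers and 0.36, 0.52 and 0.88 in LL livers. One liver each of HH and LH was below the reference while all others were above it. Colons ranged from -1.13 to 0.03, with a median of -0.47. The log2 difference between tissues was 1.08 (SE 0.10, limma adjusted p = 1.09e-12).

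Of the 9 probes, 8 passed a fold of 1.5 and FDR < 0.05 between the tissues, 5 with the liver higher and 3 with the liver lower, beside 30.3% of all 41171 probes tested, 14.6% with the liver higher and 15.7% with the liver lower. The 9 passed the test against background on every array, which many of the 41171 did not. Non-overlap of the livers and colons was seen for 4 of the 9 and for 23.2% of all probes with a value in every mouse. These differences are relative, since loess centres the ratios of each array near 0 along the range of intensity. The shift it makes thus depends on the intensity of a probe. Before loess, the median raw log2 ratio of an array was -1.39 to -0.72 in livers and -0.32 to 0.17 in colons. Without normalization the median of all probes was -0.65 for liver minus colon, against 0.01 with it, and 5.92% of the probes called were higher in the liver, against 48.2%.

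The directions of *Fpgs*, *Slc46a1*, the brighter *Slc19a1* probe and both *Ggh* probes were the same under all scalings. Without normalization of the ratio, *Fpgs* was 1.71 and *Slc46a1* 0.97 higher in the liver on the log2 scale, and *Slc19a1* was -2.34 and *Ggh* -2.36 and -2.47. The remaining probes did not keep theirs. *Folr2* was 1.08 with loess, 0.44 with median centring, 0.05 by the unnormalized Cy3 signal and -0.42 by the unnormalized ratio. The dimmer *Slc19a1* probe was -0.30 and the dimmer *Folr1* probe -0.64 by the unnormalized ratio. The brighter *Folr1* probe ranged from -1.60 by the unnormalized ratio to 0.12 by the Cy3 channel with quantile normalization.

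**Figure D1:**
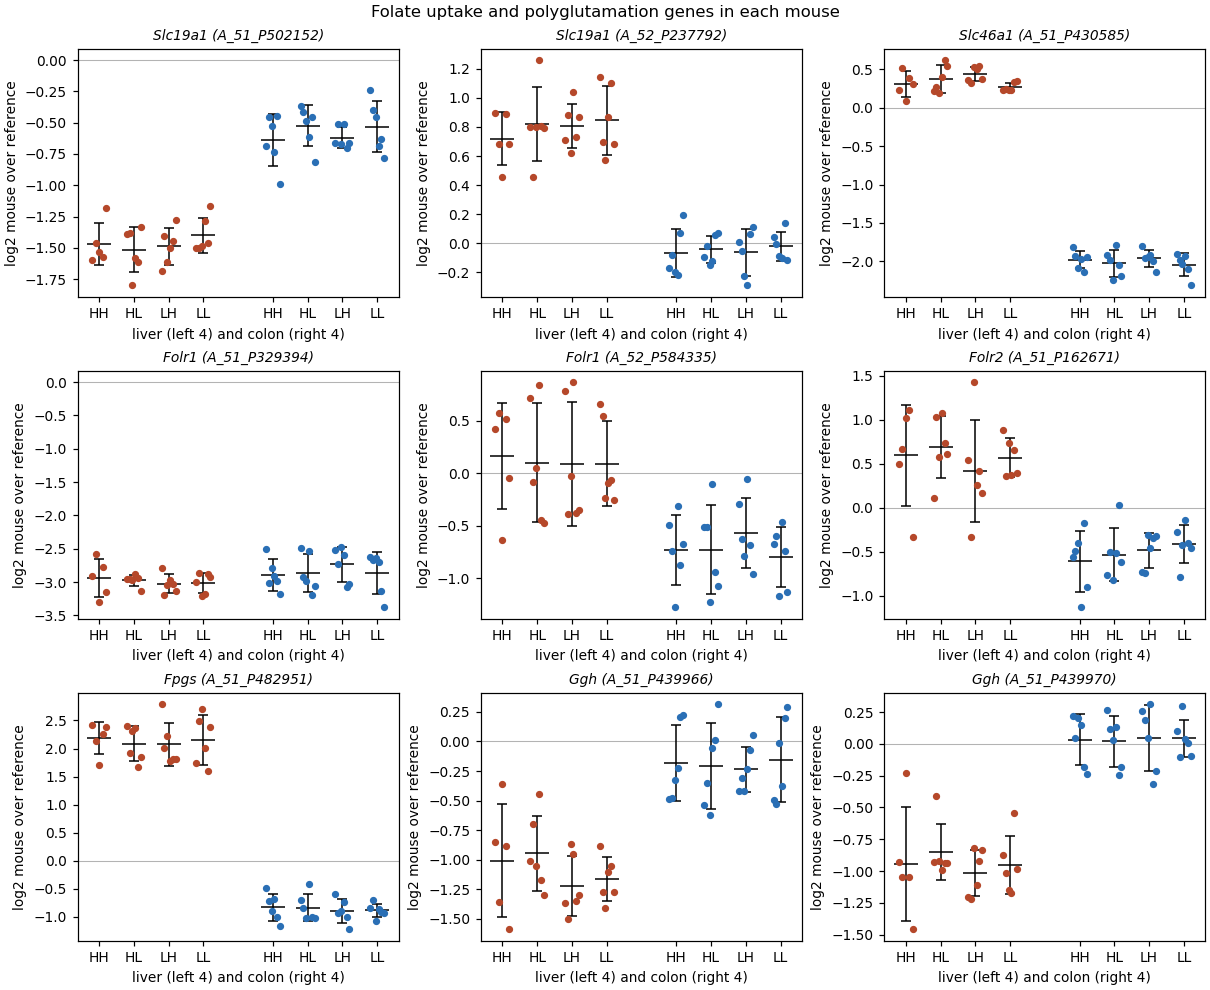
Log2 ratio of mouse over reference for the 9 probes, 1 panel each with its own vertical scale. Points are mice, red in the liver and blue in the colon; bars are the mean and SD of a diet group of 5 or 6 mice. The tissues separate for *Fpgs* and *Slc46a1*, while the 4 diets overlap in every panel.

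**Figure D2:**
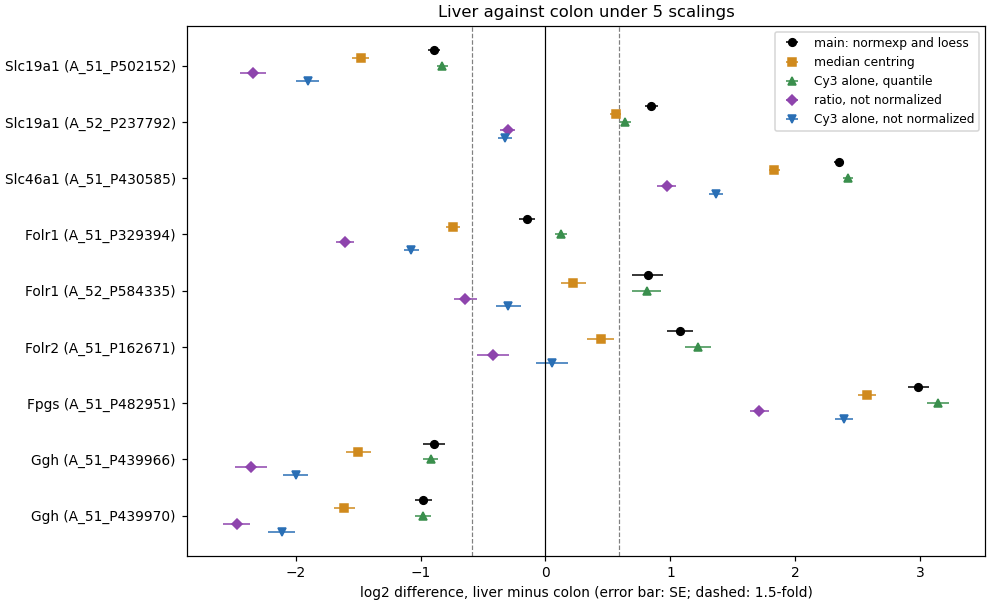
Log2 difference of liver minus colon (horizontal axis) for each probe under 5 scalings, with SE bars from limma and dashed lines at 1.5-fold. *Fpgs* and *Slc46a1* stay right of 0 and *Ggh* and the brighter *Slc19a1* probe stay left, while *Folr2*, *Folr1* and the dimmer *Slc19a1* probe have values on both sides.

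The comparison of diets asked whether low selenium and folate, in the dam or in the offspring, moved these genes. In the liver, 0 of the 9 probes were called in any of the 6 comparisons of diets, as were 0% of all probes in each of them. Of 54 tests, 1 had an unadjusted p below 0.05, beside 5.17% over all probes, and no pair of diets was without overlap at any of the 9 probes, beside 0.417%. This test was *Slc46a1* in LH *vs.* LL, where LL was -0.17 from LH (SE 0.08, limma adjusted p = 0.768). The 6 LL livers lay between 0.23 and 0.35 and the 6 LH livers between 0.32 and 0.55, so the groups overlapped. In the colon, 0 of 9 probes were called, beside 0% of all probes, and 0 of 54 tests had a p below 0.05, beside 2.2% over all probes. No diets were without overlap there either, beside 0.0958%. The 0% in the liver departs from the study, which used the same fold and FDR thresholds. It reports differentially expressed liver probes in HH *vs.* LH, HH *vs.* HL, HH *vs.* LL and LH *vs.* LL. Why the counts differ was not tested.

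The intervals give the size of difference that these data allow when slide is left out of the fit. In the colon the fit with slide, described below, gave smaller SEs. In the liver, 41 of the 54 differences had a 95% interval within 1.5-fold in both directions, and in the colon 53 of 54 did. The largest difference was 0.28 on the log2 scale in the liver and 0.23 in the colon, and the median size was 0.07 and 0.05, where the median over all probes was 0.07 and 0.05. The dimmer *Folr1* probe had the widest interval of HH *vs.* LH in the liver, at -0.08 (-0.69 to 0.53), followed by *Folr2*, at -0.18 (-0.71 to 0.34). For the dam's diet, *Fpgs* in HH *vs.* LH was -0.11 in the liver (95% interval -0.54 to 0.32) and -0.07 in the colon (-0.31 to 0.17). *Slc46a1* was 0.13 (-0.04 to 0.30) and 0.02 (-0.15 to 0.19), and *Slc19a1* was -0.02 (-0.22 to 0.18) and 0.02 (-0.18 to 0.22). *Folr1* was -0.08 (-0.30 to 0.13) and 0.16 (-0.15 to 0.47), and *Ggh* was -0.21 (-0.59 to 0.16) and -0.05 (-0.40 to 0.30). No member had an interval clear of 0 in this comparison in either tissue. Mice were fitted as independent, since the labels do not say which of them shared a dam.

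For the diet of the offspring after weaning, HH *vs.* HL gave intervals that all included 0. In the liver the carriers *Slc19a1* and *Slc46a1* were at -0.05 (95% interval -0.25 to 0.15) and 0.07 (-0.11 to 0.24), and the receptors *Folr1* and *Folr2* at -0.03 (-0.25 to 0.18) and 0.09 (-0.43 to 0.62). The polyglutamation enzymes *Fpgs* and *Ggh* were at -0.09 (-0.52 to 0.34) and 0.06 (-0.31 to 0.44). In the colon these 6 differences ranged from -0.05 for *Slc46a1* to 0.12 for *Slc19a1*. Diet L throughout, in HH *vs.* LL, gave liver differences from -0.16 for *Ggh* (-0.53 to 0.22) to 0.07 for *Slc19a1* (-0.13 to 0.27) and colon differences from -0.06 for *Slc46a1* (-0.23 to 0.10) to 0.19 for *Folr2* (-0.11 to 0.50). The 3 comparisons share their HH mice.

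*Ggh* gave the lowest p of the members for the dam's diet averaged over both diets of the offspring in the liver. The mean of LH and LL was -0.22 from that of HH and HL (SE 0.12, limma adjusted p = 0.999) by A_51_P439966 and -0.09 (SE 0.11, limma adjusted p = 0.999) by A_51_P439970. The HH group included the mouse with 2 arrays, whose A_51_P439966 value of -0.36 was the highest of HH, where the others were -0.85, -1.36, -0.89 and -1.59. Both of its arrays were high, at -0.23 and -0.50. None of the 9 probes was called, beside 0% of all probes, for a different effect of the dam's or the offspring's diet between liver and colon by the interaction test of limma (adjusted p of 0.999 or above).

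**Figure D3:**
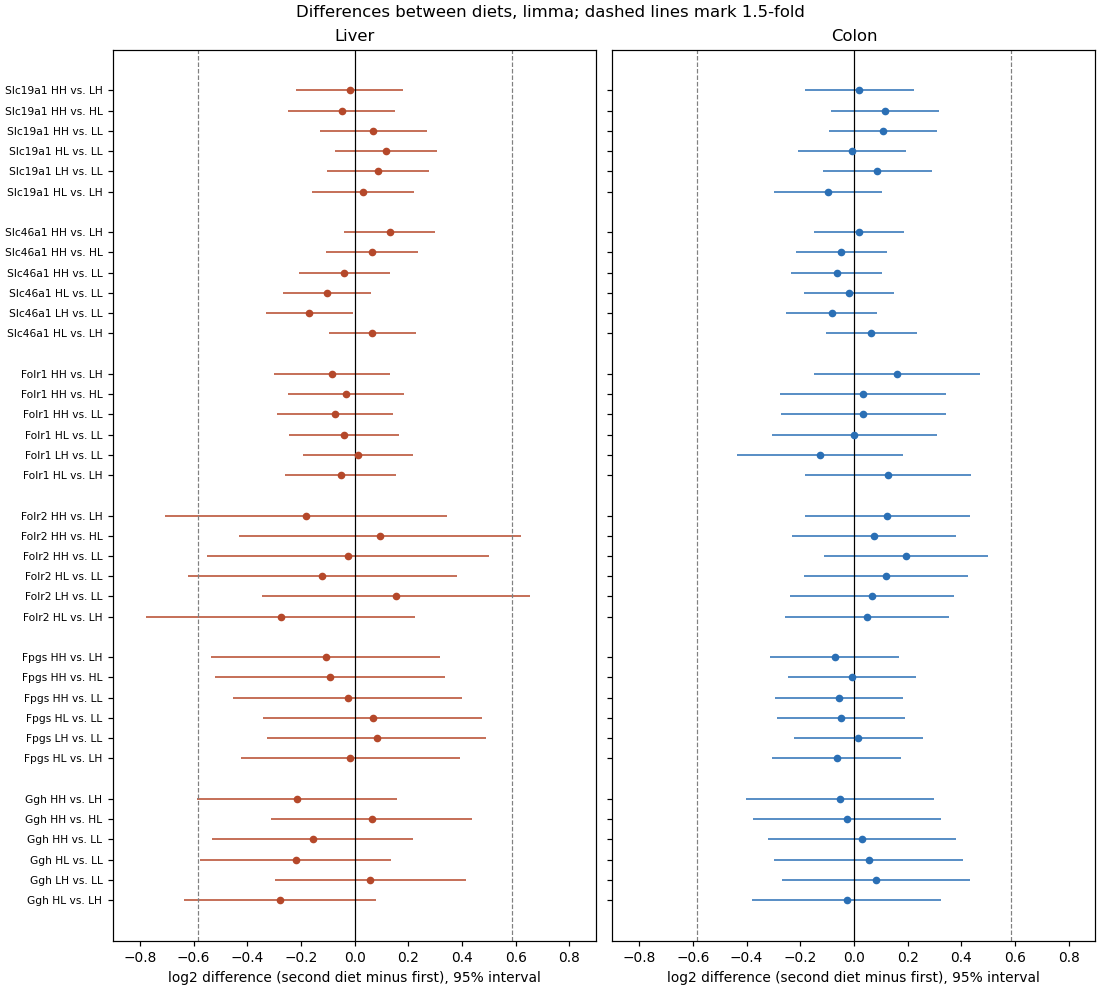
Log2 differences between diets for the brightest probe of each gene, second diet minus first, with 95% intervals from limma, in the liver (left, red) and colon (right, blue). Dashed lines mark 1.5-fold. Slide was not part of this fit. Every interval includes 0 except *Slc46a1* in LH *vs.* LL of the liver, and those of *Folr2* in the liver are the widest.

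The spread within the diet groups was set against slide. Over all probes, the median share of the variance within groups that lay between slides was 33.4% in the liver and 45.5% in the colon, where 6 slides hold 26.3% and 25% of the degrees of freedom. In the liver the members ran from 12.2% for *Ggh* A_51_P439970, 20.4% for *Fpgs* and 25.9% for *Folr2* to 51.7% for the brighter *Slc19a1* probe and 64.9% for the dimmer *Folr1* probe. In the colon the share was 81.6% and 73.7% for the *Ggh* probes, 78.9% and 85.3% for *Folr1*, 70.5% for *Fpgs*, 66.1% for *Slc46a1* and 58.0% and 68.5% for *Slc19a1*, but 29.3% for *Folr2*. Slide means of *Ggh* A_51_P439966 in the colon, as deviations from the diet means, ran from -0.29 on slide 7 to 0.42 on slide 12. At A_51_P439970 the same slides were at 0.18 and -0.22. The 2 probes of 1 gene thus differed between slides in opposite directions, while both were lower in the liver than in the colon. In the liver, the slide shares and the fit with slide used only 1 array of the HH mouse that had 2. Slide 6 thus held no HH array there. Since each slide otherwise held each diet once, slide was also fitted as a block. With it, 1 of 54 tests had a p below 0.05 in each tissue, beside 6.84% over all probes in the liver and 5.38% in the colon, and 0 of 9 probes were called in either. In the liver it was *Slc46a1* in LH *vs.* LL, at -0.17 (95% interval -0.33 to -0.008, limma adjusted p = 0.532). In the colon it was the dimmer *Folr1* probe in LH *vs.* LL, at -0.23 (-0.40 to -0.05, limma adjusted p = 0.616). Without the block this colon interval was -0.61 to 0.16. SEs in the colon were 0.06 to 0.14 with the block and 0.08 to 0.19 without it.

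**Figure D4:**
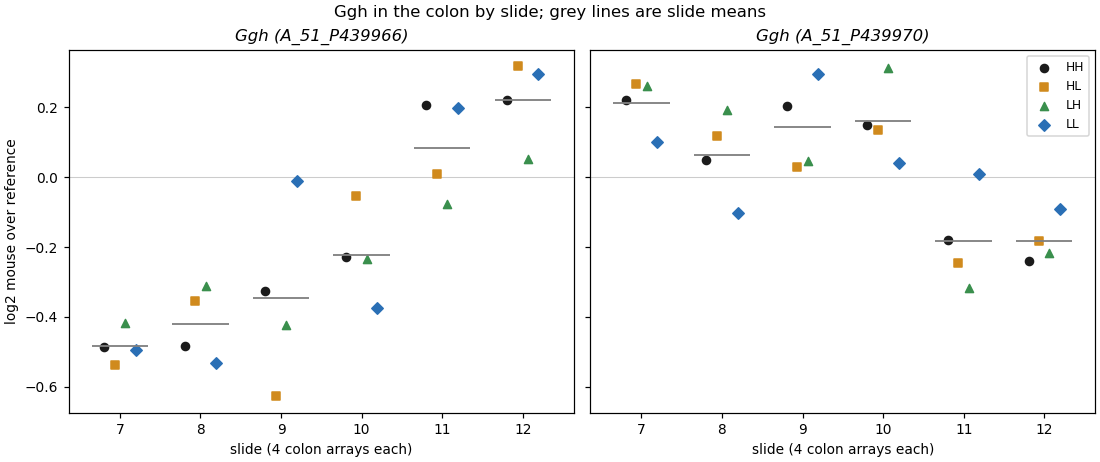
Log2 ratio of *Ggh* in 24 colons by slide for its 2 probes, A_51_P439966 left and A_51_P439970 right. Symbols are diets and grey lines slide means. The left probe is highest on slides 11 and 12, where the right probe is lowest.

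*Folr2* was set beside the mean log2 ratio of 12 macrophage and Kupffer cell genes, after the similarity of genes given below had been seen in the same mice. The relation is therefore a description, with no test, and 1 gene of the list, *Cd5l*, is also among the most similar genes. Kupffer cells are the macrophages of the liver. With group means subtracted, Pearson's r over the 23 livers was 0.85 and Spearman's rho was 0.76. Without the 2 livers farthest from the median r was 0.74, and with slide removed it was 0.85. The 2 livers with the lowest *Folr2*, at -0.34 and -0.33, had the lowest macrophage means, 0.88 and 1.05. Over 24 colons r was 0.41, rho was 0.54, and r was 0.51 without the 2 farthest and 0.56 with slide removed. One LL colon had a macrophage mean of 0.995, while all others were at -0.08 or below. *Ggh* in the liver had r of 0.73 and rho of 0.60, with r of 0.62 without the 2 farthest livers and 0.65 with slide removed. In the colon *Ggh* had r of -0.13 and rho of -0.01, with r of 0.07 without the 2 farthest and -0.39 with slide removed.

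**Figure D5:**
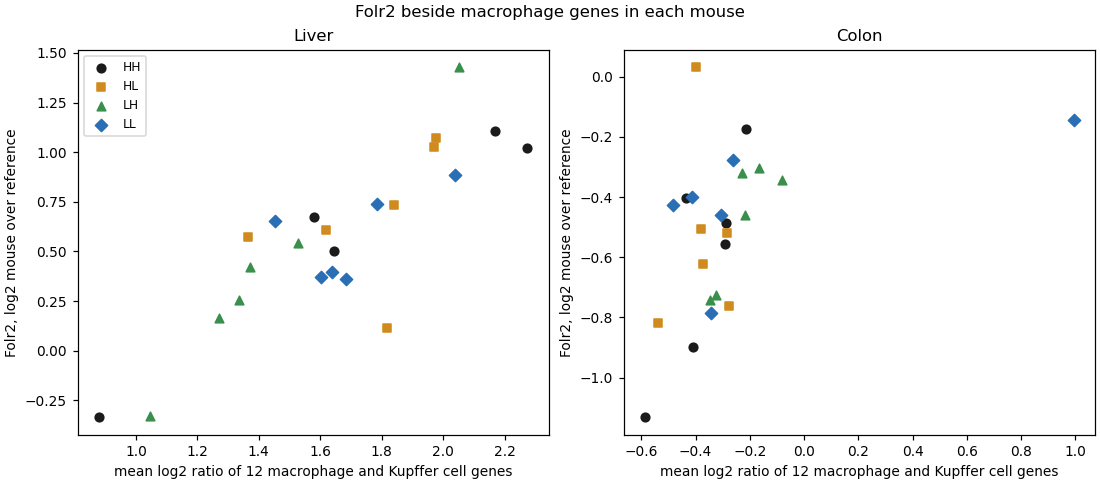
*Folr2* (vertical, log2 mouse over reference) against the mean log2 ratio of 12 macrophage and Kupffer cell genes (horizontal) in 23 livers (left) and 24 colons (right). Symbols are diets. In the liver the 2 mice lowest in *Folr2* are also lowest in the macrophage mean, while 1 LL colon lies alone at 0.995.

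The genes most like each member within a tissue were taken by Pearson's r over mice with group means subtracted, as a description, among 12984 genes in the liver and 14725 in the colon. In the liver *Folr2* was closest to *Pilrb1* (0.91), *Cd5l* (0.90), a secreted protein of macrophages that is also in the list above, and *Adgre4* (0.89), a surface receptor of macrophages. In the colon it was closest to *Retnla* (0.88), *Pcolce2* (0.84) and *Cd209f* (0.81). *Fpgs* was closest to *Ehd1* (0.93), *Paqr9* (0.92) and *Gsr* (0.91), glutathione reductase, in the liver. *Ggh* in the liver was closest to *Lgals3* (0.89), *Sh3bgrl3* (0.87) and *Arhgdib* (0.87), and *Slc46a1* to *Ces2f* (0.86). *Folr1* in the liver was closest to *Dio3*, *Gpx2* and *Agr2* (0.91, 0.90 and 0.88), which were also far below the reference, at -3.69, -4.05 and -5.59. In the colon the closest genes of *Fpgs*, *Ggh* and *Folr1*, led by *Tmed3* (0.93), *Dlg1* (0.94) and *Ttr* (0.93), were chosen on values in which slide took over 70% of the spread for each of these members.

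Other genes of the pathway were taken as 2 lists. Of the 22 folate cycle enzymes, which carry and convert single-carbon units, 21 were on the array. Between the tissues 12 were called higher and 3 lower in the liver, beside 14.6% and 15.7% of all probes, and the median log2 difference was 1.32 beside 0.01 over all probes. The highest were *Dmgdh* (7.49), *Ftcd* (6.75) and *Gldc* (5.84), enzymes of choline, histidine and glycine breakdown. *Aldh1l1* (4.92), *Sardh* (4.81), *Shmt2* (2.88), *Shmt1* (2.46), *Mthfd1* (1.57), *Gcsh* (1.39), *Mthfs* (1.32) and *Mtrr* (0.60) were among the others called higher. *Mthfd1l* (-2.44), *Mthfd2* (-1.09) and *Tyms* (-1.05), thymidylate synthase, were called lower. *Aldh1l2* and *Mthfd2l*, neither of them called, were well above background on 0 of the 24 liver arrays and on all 24 colon arrays. Under 7 scalings 9 of the 12 stayed higher and all 3 stayed lower, the exceptions being *Gcsh*, *Mthfs* and *Mtrr*, and the median was -0.10 without normalization.

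The second list held 13 other carriers, exporters and endocytic receptors linked to folates, all on the array. In the liver 7 were called higher and 4 lower, beside 14.6% and 15.7% of all probes. The median log2 difference was 0.61, beside 0.01 over all probes. The median was 0.05 with median centring (4 called higher and 4 lower), -0.82 without normalization of the ratio (3 and 9) and -0.38 by the unnormalized Cy3 signal (3 and 4). Over all probes, 58.8%, 55.5% and 46.9% were called in these settings, in this order. Of those calls, 57.8%, 5.92% and 9.54% were higher in the liver. *Slco1b2* (8.86), *Abcc2* (4.98) and *Slco2b1* (2.03), carriers of organic anions of which *Abcc2* faces the bile, were higher under all 7 scalings. *Izumo1r* (0.71), *Lrp2* (0.70), *Slc22a8* (0.75) and *Slc25a32* (0.61), the mitochondrial folate carrier, were called higher and changed sign under at least 1 scaling. *Cubn* (-2.97), *Abcc1* (-2.13), *Abcc5* (-1.30) and *Abcc4* (-1.01) were lower under all 7.

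Neither list had a gene called between any diets in either tissue. In HH *vs.* LH of the liver, where 12% of all probes had an unadjusted p below 0.05, 3 of 21 enzymes and 5 of 13 carriers did. The lowest p among the enzymes were those of *Mthfs*, with a log2 difference of -0.47 (SE 0.14, limma adjusted p = 0.241), and *Shmt1*, with 0.34 (SE 0.14, limma adjusted p = 0.331). Among the carriers they were *Abcc2*, with 0.28 (SE 0.10, limma adjusted p = 0.276), and *Slco2b1*, with 0.27 (SE 0.11, limma adjusted p = 0.33). Medians over the lists were 0.05 and 0.12, beside -0.01 over all probes. In the same comparison the hepatocyte genes had a median of 0.28, with 2 of 6 at an unadjusted p below 0.05, and the macrophage and Kupffer cell genes a median of -0.28, with 1 of 12. The mean of the hepatocyte genes was 1.46 to 1.80 in HH livers and 1.73 to 2.17 in LH livers, and that of the macrophage genes 0.88 to 2.27 and 1.05 to 2.05. Their part in the values of the carriers and enzymes, and of *Folr2* and *Ggh*, was not tested. In HH *vs.* LH of the colon, where 3.24% of all probes had a p below 0.05, 1 gene of each list did.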

How the data were processed

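Total RNA of liver and colon was labelled with Cy3 and reference RNA with Cy5, without a dye swap, on Agilent 4 × 44 k mouse arrays. The authors deposited scanner files with the median intensity of each spot and its local background, not normalized, with processed intensities and spot flags (other values, per the file headers of Feature Extraction 10.10.1.1). A further deposited table held log2 ratios with the reference as numerator. It matched, with its sign turned, loess without background correction (r = 0.9997 or higher on every array). Its medians were near 0 and its scale was log2. The submitters' processing notes name R 3.0.2 and limma.

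Here a local background brighter than its spot was set to the array median, then normexp (offset 50) and global loess were applied, control and outlier spots were left out and spots of a probe were averaged. Names came from the probe's accession in the GRCm38.p6 RefSeq gene table (27050 probes matched). Of several probes of a gene in a list, the one with the highest mean Cy3 signal was used, and every probe of the 6 genes was reported. Per list, called genes were named or, with none called, the 2 with the lowest p in HH *vs.* LH of the liver. The 3 most similar genes were taken among those well above background on at least 80% of arrays. Each tissue was fitted with limma 3.58.1 (lmFit and eBayes, R 4.3.3) as 4 groups, and both tissues together as 8. Adjustment was by Benjamini-Hochberg across all probes, and called means a fold over 1.5 with FDR < 0.05. Correlations were taken with diet means subtracted. The model was tested on simulated data drawn without slide effects, so that test does not cover the spread between slides.

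The genes, lists and settings were chosen with earlier results of these data known. The number of arrays limits the precision. Positions of the probes within transcripts were not analysed here. The value of 1 gene counted in the lists is not reported here.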

Additional observations from a re-analysis of the deposited data

Results flagged for a closer look

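By Dixon's test, 3 of the 72 groups of a probe held a mouse far from the others, and chance flags about 1 in 20 groups. *Folr1* A_51_P329394 in HL livers had a lowest value of -3.134 in replicate 6, with the next at -2.97. *Folr2* in HL colons had a highest value of 0.03056 in replicate 5, with the next at -0.51, and this colon was 1 of the 6 with *Xist*. *Ggh* A_51_P439970 in HL livers had a highest value of -0.4066 in replicate 2, with the next at -0.92, and this was the liver with *Xist*. The part of *Xist* in these values was not tested.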

How the results depend on the processing

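The count of member probes called between diets was 0 in both tissues under all alternative runs. They included each mouse left out (0 to 0), the samples with *Xist* left out, slide as a block, and FDR < 0.05 alone. Single differences were followed for the brightest probe of each gene in HH *vs.* LH, HH *vs.* HL and HH *vs.* LL of both tissues. The other comparisons of diets were not followed. The lowest limma adjusted p of the 36 differences was 0.277. Of these 36, 24 changed sign under at least 1 of the alternatives and 12 under none. The count of member probes called between liver and colon was 8 with each mouse left out (8 to 8) and 6 with median centring. It was 7 and 6 in the settings without normalization of the ratio and of the Cy3 signal, which were added after seeing the data. With a fold over 2 it was 3 (*Fpgs*, *Slc46a1* and *Folr2*). With median centring and in the 2 settings without normalization the probes called were not all the same. The brighter *Folr1* probe was called lower in the liver there (-0.74, -1.60 and -1.07). Without normalization of the ratio, the dimmer *Slc19a1* probe was -0.3018, *Folr2* -0.4197 and the dimmer *Folr1* probe -0.6407, called lower. By the unnormalized Cy3 signal, the dimmer *Slc19a1* probe was -0.3275 and the dimmer *Folr1* probe -0.2971. By unnormalized Cy3, 9.54% of called probes were higher in the liver. The count of all probes called was 12491, 24221 with median centring, 20275 with processed signals, 22847 without normalization and 19323 by unnormalized Cy3. The cause was not tested. No paired analysis was possible because replicate numbers only name samples in accession order and the labels do not tie livers to colons.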
